A study of Maylandia zebra with 2 samples.

Results

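Cluster 6 of the oral lamina of *Maylandia zebra*, a cichlid fish of Lake Malawi, is the class of nuclei that the deposited annotation names Mesenchymal. It holds 85 of the 1296 nuclei that the authors kept, or 6.56% of them (95% Clopper-Pearson interval 5.27 to 8.05). Members were taken as the deposited columns for cluster, cell type and kept nuclei give them. The oral lamina is a soft tissue of the mouth next to the replacement teeth, and the title of the series is on cell types of teeth in vertebrates. Nuclei came from the upper and the lower jaw, with 1 library per jaw. Per the labels' protocols a detergent buffer released them, DAPI-positive singlets were collected by flow sorting, and libraries were built with the 10x Chromium V3 kit. The labels name no strain, age or sex and no number of fish. Cluster 6 was compared with the 1211 other kept nuclei, which include immune, pigmented, taste bud (TB) and epithelial clusters, and with the 521 nuclei of the basal Epithelial clusters 0, 1 and 7. All 3 groups come from the same libraries, and the labels name no treatment or genotype for any of them.

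Mesenchyme is the loose tissue beneath an epithelium, whose cells lie apart in a matrix of collagen, proteoglycan and glycoprotein that they secrete. In the jaws of vertebrates much of it descends from the cranial neural crest. Teeth form where such mesenchyme and the oral epithelium exchange Wnt, BMP, FGF and hedgehog signals, and in fishes that replace their teeth the same tissues meet again at each replacement.

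The 85 nuclei held 110189 unique molecular identifiers (UMIs, each standing for 1 counted RNA molecule), or 7.74% of all UMIs of kept nuclei. Their median was 986 UMIs and 673 genes per nucleus, with a range of 410 to 4116 UMIs, against a median of 819 UMIs in all other kept nuclei and 976 in the basal clusters. Levels below are in CPM, the UMIs of a gene scaled to the total of its group and not corrected for gene length, and 3 UMIs equal 27.2 CPM in cluster 6, 2.29 CPM in all other nuclei and 4.43 CPM in the basal clusters. Both jaws share 1 matrix and no column ties a barcode to a jaw, so cluster 6 is 1 pooled sample. No test between groups was possible, nuclei are not replicates, and every interval covers counting error only. The authors drew the clusters from these same counts, so differences between cluster 6 and the other nuclei describe the cluster and test nothing. Barcodes end in the suffix 1 or 2, whose meaning the sources do not give. Cluster 6 held 57 of 754 kept nuclei with suffix 1 (7.56%) and 28 of 542 with suffix 2 (5.17%). Over all barcodes 1 sequence occurred under both suffixes, and a nucleus of cluster 6 was among those. The deposited score named cyto, a rank from 0 to 1 over kept nuclei, had a median of 0.244 in cluster 6, 0.520 in all other nuclei and 0.775 in the basal clusters.

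The label was set against its markers first. The 5 markers given for the class are *prrx1b* and *glis1a*, transcription factors, *ptx3b*, a pentraxin, *col6a2*, a collagen VI chain, and *sfrp2*, a secreted Wnt modulator. They had 47, 37, 139, 40 and 60 UMIs in cluster 6, in that order, against 4, 1, 4, 5 and 1 UMIs in all other nuclei and 2, 1, 2, 3 and 0 UMIs in the basal clusters. Of a longer list that adds PDGF receptors, collagens I, III, V and VI, decorin, lumican, fibrillin, twist factors and vimentin, 18 members had at least 20 UMIs in cluster 6 and all other nuclei together, the minimum for a feature to count as measured. All 18 were at least 2-fold higher in cluster 6. That minimum counts the UMIs of cluster 6 itself, so genes such as *sfrp2*, at 60 and 1 UMIs, were measured only through cluster 6. The same holds for the lists below. This list also contains the 5 given markers, so its count describes the cluster and tests nothing. Over all 9333 measured features, 10.6% stood 2-fold or more above all other nuclei in cluster 6 and 18.1% stood 2-fold or more below them, and the median log2 fold was -0.13. These shares are to be set beside every list count against all other nuclei below. With each nucleus thinned to 500 UMIs, which left out 8 nuclei of cluster 6, 48 of 77 nuclei of cluster 6 (62.3%) held 3 or more mesenchyme markers, against 28 of 1037 other nuclei (2.70%) and 23 of 477 basal nuclei (4.82%). For the cluster as a whole, the markers did not go against the label Mesenchymal. The lists were chosen with earlier results of these data known, so this is no independent check of the label.

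Markers of other cell types were read in a few nuclei. All 18 skeletal muscle features were at 0 UMIs in cluster 6. Of 25 endothelium features, 11 were at 0 and the list summed to 1044 CPM in cluster 6, 247 CPM in all other nuclei and 92.9 CPM in the basal clusters. At least 3 endothelium members occurred together in 7 nuclei, numbered here by depth from 1 for the nucleus with most UMIs, and 3 of these 7 held no mesenchyme marker. Nucleus 58 held 7 UMIs of *mpz*, the main protein of peripheral myelin, with 2 of *mbpa* and 1 of *plp1a*, and no mesenchyme marker. Nuclei 3 and 6 held all 18 UMIs of *pnp4a*, an enzyme of purine metabolism used as a marker of reflective pigment cells in zebrafish. They also held all 50 UMIs of *slc2a15a*, a sugar transporter. Nucleus 1 held 10 of the 11 *mrc1b* UMIs and 6 of the 20 *stab1* UMIs, scavenger receptors of macrophages and some vessels. In all, 11 nuclei held at least 3 members of the endothelium, Schwann and neuron, or macrophage and pigment list. Without them, 1038 features were at least 2-fold higher than in all other nuclei, against 991 with them, and 17 mesenchyme markers were, against 18. The immune and basal epithelium lists did not enter the choice of these 11 nuclei. At least 4 immune members occurred together in 7 nuclei of cluster 6, and at least 5 basal epithelium members in 30.

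Keratin RNA was read in cluster 6 in a share of nuclei close to that of Immune cluster 2, but at a higher level. *krt5*, a keratin of basal epithelium, was read in 80.0% of the nuclei of cluster 6 at 4855 CPM (4453 to 5285), with a median depth of 986 UMIs. Immune cluster 2 had *krt5* in 79.0% of nuclei at 3801 CPM (3512 to 4108) with a median depth of 744 UMIs, and Pigmented cluster 5 in 74.5% at 3337 CPM. The intervals of the first 2 levels do not overlap, and shares depend on depth. The basal clusters had it in 98.5% of nuclei at 15366 CPM. *krt15* showed the same order, in 61.2% of cluster 6, 55.8% of Immune cluster 2 and 91.0% of basal nuclei. *ptx3b* was read in 29.4% of cluster 6 and in 0 of 181 nuclei of Immune cluster 2, and *scara5* in 51.8% and 3.31%. *itga6b*, an epithelial integrin chain, was read in 47.1% of cluster 6, 33.7% of Immune cluster 2 and 91.0% of basal nuclei. These shares hide an uneven spread within cluster 6. Nuclei 4, 5 and 21 held 58, 53 and 45 of the 535 *krt5* UMIs, with 10, 9 and 7 basal epithelium members. They also held 10, 9 and 4 mesenchyme markers. Nuclei 14, 17 and 25 held 0 *krt5* UMIs, 1 basal epithelium member each, and 13, 11 and 8 mesenchyme markers. Their depths were 2018, 1847 and 1571 UMIs, against 3616, 3596 and 1684. The cause was not tested.

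**Figure D1:**
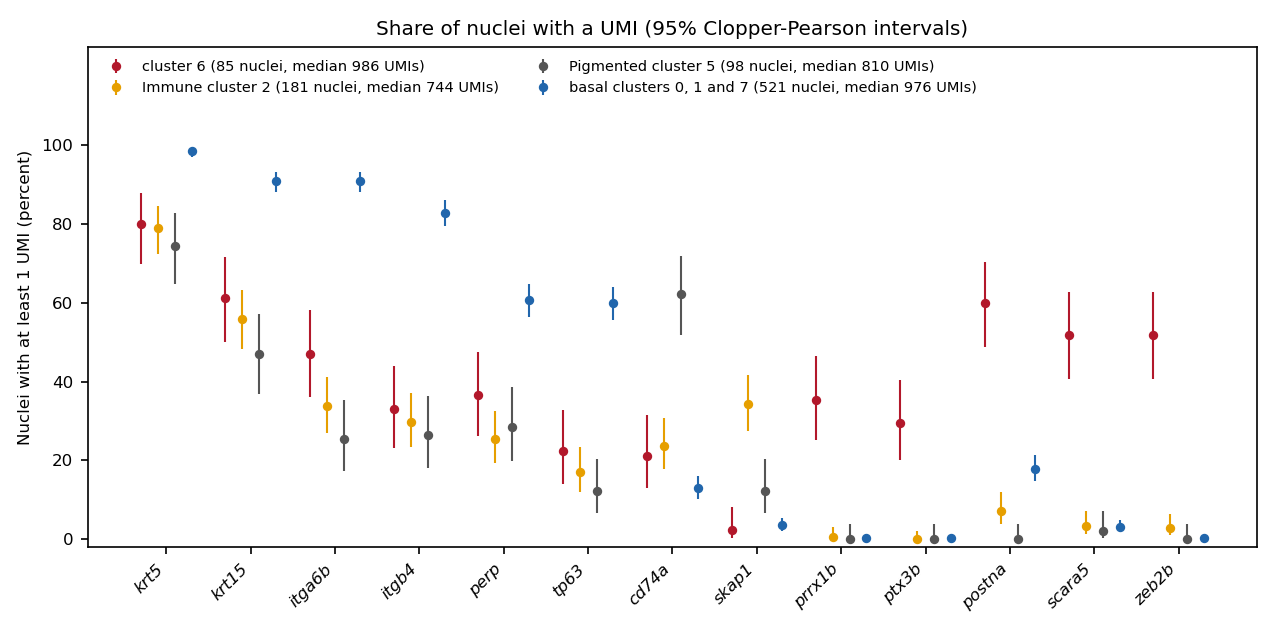
Percent of nuclei with at least 1 UMI (vertical axis, 95% Clopper-Pearson intervals) for 13 genes (horizontal axis) in cluster 6, Immune cluster 2, Pigmented cluster 5 and the basal clusters. *krt5* sits at 80.0% in cluster 6 and 79.0% in Immune cluster 2, while *postna* sits at 60.0% and 7.18%.

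The 25 genes with the highest lower interval bound against all other nuclei were between 33.2 and 715 times higher in cluster 6. The selection used features with at least 20 UMIs in cluster 6 and detection in no less than 20% of its nuclei, 744 in all, and the last gene inside had a lower bound of 25.4 against 24.7 for the first outside. They were read in 18 to 51 of the 85 nuclei. All 25 were at least 2-fold higher within each suffix, with least ratios of 26.7 in suffix 1 and 16.6 in suffix 2, where 3 of them had 0 UMIs outside cluster 6 and no ratio but a bound. The genes were picked on the UMIs of both suffixes together, so this is no independent check. The cluster with the next highest level was Immature TB for 6 of them. That cluster holds 18 nuclei, and 3 UMIs equal 113 CPM in it. The 6 levels rest on few UMIs there, from 1 for *glis1b* to 4 for *angptl7*, so no likeness to that cluster is read from them. Of the 25 genes, 4 had 0 UMIs in the basal clusters. The group is mixed in role: transcription factors, matrix proteins, receptors, secreted factors and a transporter.

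**Figure D2:**
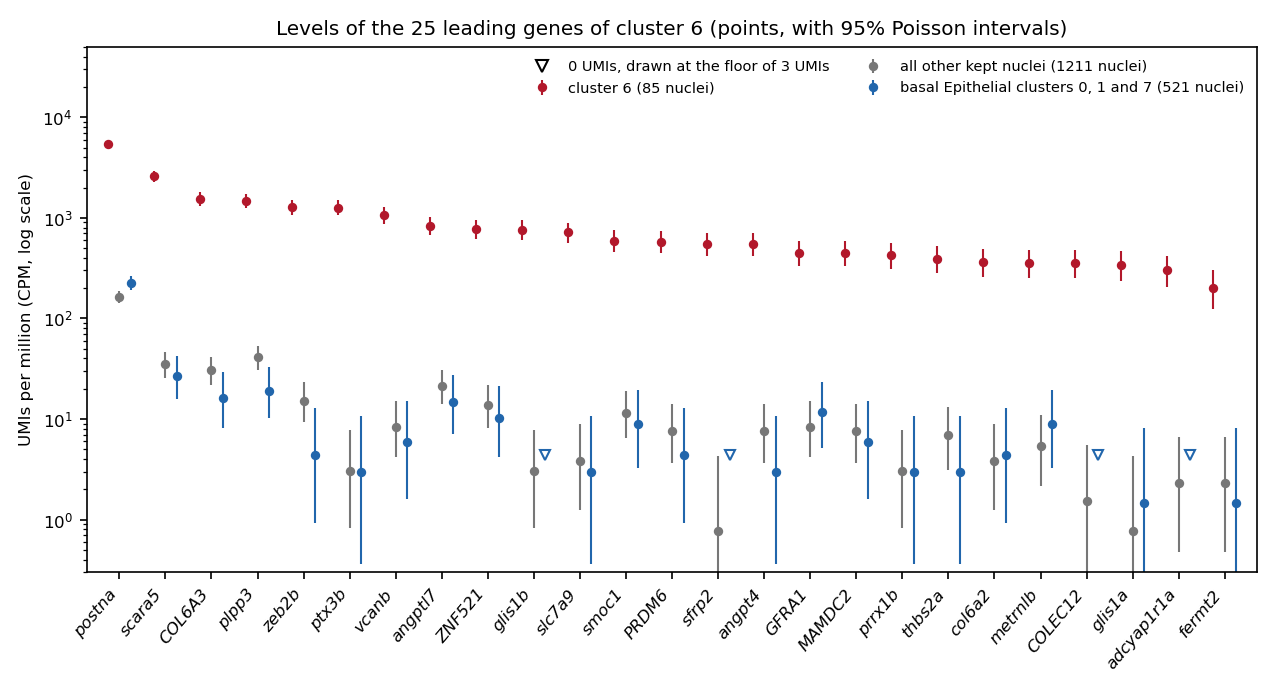
CPM on a log scale (vertical axis, 95% Poisson intervals) of the 25 leading genes (horizontal axis) in cluster 6 (red), all other kept nuclei (grey) and the basal clusters (blue); open triangles mark 0 UMIs, drawn at 3 UMIs. All 25 red points lie at least 23.8 times above the blue points that have a value, and levels of different genes are not corrected for length.

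Among its receptors and secreted factors, *scara5*, a scavenger receptor that takes up ferritin, stood at 2586 CPM in cluster 6 and 35.0 CPM in all other nuclei (ratio 73.8, interval 53.9 to 103). By suffix it stood at 2420 CPM in cluster 6 and 32.9 CPM in other nuclei of suffix 1, and at 2915 CPM and 37.5 CPM in suffix 2. The levels of both suffixes lay close together, and no other cluster passed 178 CPM. *COLEC12*, another scavenger receptor with a collagen-like stalk, had 39 UMIs in cluster 6 and 2 in all other nuclei. *GFRA1*, a receptor for the neurotrophic factor GDNF, had 49 against 11, and *adcyap1r1a*, the receptor for the neuropeptide PACAP, 33 against 3. *angpt4* and *angptl7*, of the angiopoietin family of secreted ligands, had 60 against 10 and 92 against 28 UMIs. *metrnlb*, which encodes a meteorin-like secreted protein, had 39 against 7. *plpp3*, a membrane phosphatase that breaks down lipid signals, stood at 1470 CPM in cluster 6 and 41.1 CPM elsewhere. *fermt2*, which encodes kindlin-2, a protein that activates integrins, had 22 against 3 UMIs. *COLEC12* is one of the names that the files mark as 1 of many, as are *ADAM12*, *AXIN2*, *CDH4*, *EBF1*, *EPHA6*, *FBLN2*, *NRP1*, *NTNG2*, *epcam*, *ror1*, *tp63* and *KCNIP2* below, so that near-identical copies could share their reads.

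**Figure D3:**
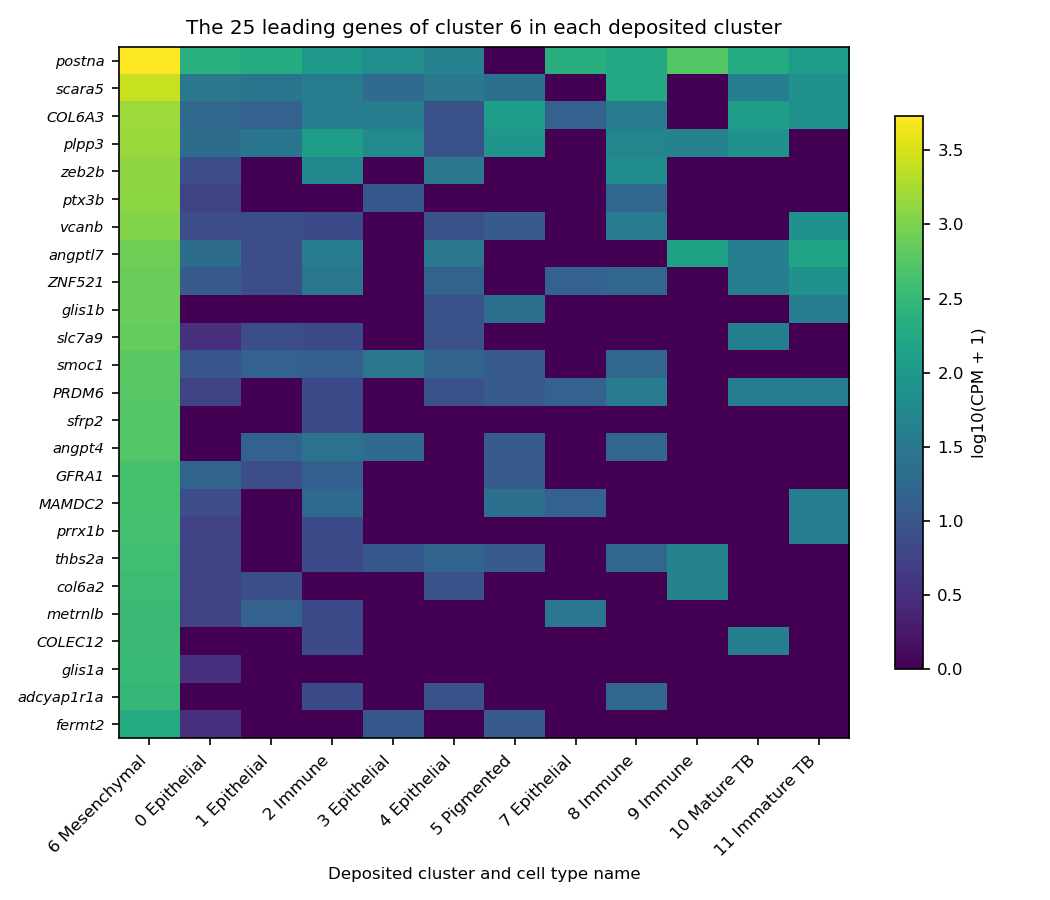
log10(CPM + 1) as colour for the 25 leading genes (rows) in each of the 12 deposited clusters (columns, cluster 6 at left). In every row the level of cluster 6 is above that of each other cluster; for *scara5* it is 2586 CPM, and the next cluster has 178 CPM.

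Transcription factors of mesenchyme were high for about as many members as not. Of 29 measured members of the mesenchyme transcription factor list, 15 were at least 2-fold higher in cluster 6 than in all other nuclei, 10 lay between and 4 were at least 2-fold lower, with a median log2 fold of 1.10. The 15 include *prrx1b* and *glis1a*, markers given for the class. *zeb2b*, a zinc finger repressor of epithelial cadherin genes, stood at 1280 CPM in cluster 6 and 15.2 CPM in all other nuclei. Within suffix 1 it stood at 1422 against 21.5 CPM, and within suffix 2 at 999 against 8.15 CPM. Its relative *zeb1b* had 63 UMIs in cluster 6, 24 in all other nuclei and 0 in the basal clusters, at least 129 times higher than there with the floor of 3 UMIs over the group. *zeb2a*, the other copy, had 3 UMIs against 21 and lay between. *PRDM6*, a PR-domain factor known from smooth muscle of the mouse, had 64 UMIs against 10, and *ZNF521*, a zinc finger protein that binds early B-cell factors, 85 against 18. The early B-cell factors themselves were read as well, with 39 against 18 UMIs for the deeper of the *EBF1* features and 44 against 13 for *ebf3a*. *TCF4*, an E-protein, was read broadly and stood at 2233 CPM in cluster 6 and 1065 CPM elsewhere, 2.10-fold higher (1.82 to 2.40). Cluster 6 was not the highest for *TCF4*, with 2716 CPM in Immune cluster 9 and 2494 CPM in the Immature TB cluster.

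*alx4b*, of the aristaless-like family that patterns the frontonasal skeleton, had 18 UMIs in cluster 6 and 3 in all other nuclei. *lhx6*, a LIM-homeobox gene of the jaw mesenchyme in mice, had 11 against 5, below the minimum. *tbx3a* had 15 against 60, a ratio of 2.98. *hic1* had 10 against 1, *nfia* 9 against 0, *foxf1* 4 against 0 and *six2a* 3 against 0, counts too low to be measured here. Not every member was high: *NFIB* had 14 UMIs against 571 (ratio 0.292), *osr1* 1 against 50, *snai2* 2 against 63 and *meis1b* 32 against 778 (ratio 0.490). *snai2* and *zeb2b* both encode repressors known from the change of epithelial to mesenchymal cells; the ratio of *snai2* was 0.378, with an interval of 0.0448 to 1.42 that includes 1. List members that are named here beyond the 6 with most UMIs in their list were chosen after their values were seen, and this holds for the paragraphs below.

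Most measured collagen genes were higher. Of 10 measured fibrillar and fibril-associated collagens, 6 were at least 2-fold higher in cluster 6 than in all other nuclei, 3 lay between and 1 was lower, with a median log2 fold of 2.07. *col1a1a* and *col1a2*, chains of collagen I, stood at 1443 and 1007 CPM in cluster 6 and at 181 and 265 CPM in all other nuclei. *col5a1*, whose product starts fibril assembly, stood at 771 CPM against 98.3 CPM (ratio 7.85, 5.90 to 10.4). Basal nuclei also held collagen I: *col1a1a* stood at 305 CPM there, above the level over all other nuclei, and its ratio was 4.73 against the basal clusters and 7.96 against all others. *col12a1b* lay between at 817 against 411 CPM, and *col14a1b* at 44 UMIs against 881. *col11a1a*, a collagen of cartilage, had 1 UMI against 181. Of the list of collagen VI, which builds beaded microfibrils around cells, and other collagens, all 3 measured members were higher, with *col6a1* at 336 CPM in cluster 6 and 16.0 CPM elsewhere and *COL6A3* at 1543 against 30.5 CPM. The remaining member was *col6a2*, a marker given for the class.

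Basement membrane genes differed among themselves. Of 8 measured members, 4 were at least 2-fold higher in cluster 6, 2 lay between, 1 was lower and 1 had 0 UMIs. *lama4*, a laminin alpha chain of vessels, muscle and fat, had 21 UMIs in cluster 6 and 2 in all other nuclei, and *LAMA2* stood at 163 against 18.3 CPM. *lamc1* was 3.12-fold higher (1.45 to 6.17). *col7a1*, the anchoring fibril collagen, stood at 381 against 618 CPM. *lama5* had 0 UMIs against 26. Without the 11 nuclei with at least 3 endothelium, Schwann and neuron, or macrophage and pigment members, the median log2 fold of this list was -0.48. It was 0.50 with them. The minimum for a feature to count as measured is applied within each setting, so these medians need not cover the same genes. *lama4*, at 21 and 2 UMIs, lies close to that minimum. No contribution of the 11 nuclei to this list is read from the change in the median.

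The ground substance was the largest of the matrix lists. Of 41 measured proteoglycans and matrix glycoproteins, 20 were at least 2-fold higher in cluster 6 than in all other nuclei, 14 lay between, 5 were lower and 2 had 0 UMIs, with a median log2 fold of 0.91. The 20 include *ptx3b*, a marker given for the class. *postna*, a copy of the periostin gene, whose protein is abundant in the periodontal ligament of mammals, stood at 5382 CPM in cluster 6, 162 CPM in all other nuclei and 226 CPM in the basal clusters. In suffix 1 it stood at 6071 against 163 CPM and in suffix 2 at 4021 against 161 CPM. It was read in 51 of 85 nuclei, and the nucleus with most of it held 60 of 593 UMIs. *vcanb*, which encodes the large proteoglycan versican, stood at 1062 CPM in cluster 6 and 8.38 CPM elsewhere. *has2*, the enzyme that makes the hyaluronan to which versican binds, had 34 UMIs against 2. *hapln1a*, the link protein between the pair, had 24 against 3. Each of the 3 had more UMIs in the 85 nuclei of cluster 6 than in the 1211 others. *dcn*, which encodes decorin, a small proteoglycan that binds collagen fibrils, stood at 1543 against 110 CPM. Its ratio was 22.5 (16.6 to 30.8) in suffix 1 and 4.79 (2.91 to 7.62) in suffix 2, intervals that do not overlap. *bgnb*, a copy of biglycan, had 16 UMIs against 1 and *prelp* 16 against 11. *smoc1* and *thbs2a*, matricellular proteins, had 65 against 15 and 43 against 9 UMIs. *MAMDC2*, another of the 25 leading genes, encodes a secreted proteoglycan and had 49 against 10. Of elastic fibre genes, *ltbp1*, which holds latent TGF-beta in the matrix, stood at 753 against 299 CPM, *EMILIN3* had 22 UMIs against 5 and *FBLN2* 19 against 26 (ratio 8.71). Against this, *gpc1b*, a membrane heparan sulfate proteoglycan, stood at 1434 against 2011 CPM, and *gpc6a* had 0 UMIs against 44.

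Enzymes that process collagen were read at lower counts. Of 20 measured members 9 were at least 2-fold higher in cluster 6 than in all other nuclei, 9 lay between and 2 were lower, with a median log2 fold of 0.83. *loxl2b*, a lysyl oxidase that cross-links collagen, had 21 UMIs against 23 (ratio 10.9, 5.73 to 20.6). *adamts3*, which trims procollagen, had 26 against 15 (ratio 20.7). *serpinh1b*, the collagen chaperone of the endoplasmic reticulum, stood at 227 CPM in cluster 6, 80.0 CPM in all other nuclei and 133 CPM in the basal clusters. Prolyl hydroxylase genes varied: *p4ha2* stood at a ratio of 1.52 (0.782 to 2.71), *p4ha3* had 9 UMIs against 53 (ratio 2.02), and *p4ha1b* 2 against 50 (ratio 0.477, 0.0562 to 1.81). Within suffix 2 alone, 3 members were at least 2-fold higher. The minimum is counted within the suffix there, so fewer members can reach it. Of 30 measured metalloproteinases and inhibitors, 10 were higher, 15 between, 4 lower and 1 at 0 UMIs, with a median log2 fold of 0.21. *mmp2*, gelatinase A, stood at 381 against 110 CPM, *mmp15a* had 15 UMIs against 5, and *reck*, a membrane inhibitor of these enzymes, 25 against 42. *ADAM12* was 20.7-fold higher and *adam28* had 3 UMIs against 184.

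Wnt genes were counted by role. Of 9 measured ligands 1 was at least 2-fold higher in cluster 6 than in all other nuclei, 3 lay between, 4 were lower and 1 had 0 UMIs, with a median log2 fold of -1.07. *wnt10a* stood at 54.5 CPM in cluster 6 and 163 CPM in all other nuclei, *wnt7ab* at 72.6 against 161 CPM, *wnt3* had 1 UMI against 179 and *wnt6b* 0 against 51. *rspo1*, an R-spondin that strengthens Wnt signals, was the member that was higher, with 7 UMIs against 13. Of 16 secreted antagonists and pathway targets 8 were higher, 6 between and 2 lower, with a median log2 fold of 0.80. The 8 include *sfrp2*, a marker given for the class. Both *sfrp2* and *frzb*, named next, met the minimum only through cluster 6. Shares over all measured features were 10.6% higher and 18.1% lower, and no split by role is read from these counts. *frzb*, a secreted Wnt antagonist, had 15 UMIs against 14 (ratio 12.8), and *APCDD1*, a membrane antagonist, 15 against 30 (ratio 5.96). *AXIN2* and *axin2*, feedback targets of the pathway, had 23 against 33 and 8 against 32 UMIs. Another feedback gene, *nkd2a*, stood at 517 against 231 CPM, and at 1013 CPM in Immune cluster 9, where it had 22 UMIs. *RNF43*, which removes Wnt receptors from the membrane, stood at 699 CPM against 1493 CPM. Of 16 receptors and planar polarity genes 5 were higher, 9 between and 2 lower. *ror1*, a receptor for Wnt5a in mammals, stood at 499 against 327 CPM, *prickle1b* at 281 against 75.4 CPM, and *LGR6*, an R-spondin receptor, had 2 UMIs against 174. In suffix 1 the ratio of *ror1* was 0.991 and in suffix 2 it was 3.44.

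For BMP signalling, 6 of 21 measured genes were at least 2-fold higher in cluster 6 than in all other nuclei, 10 lay between, 3 were lower and 2 had 0 UMIs. Several inhibitors had more UMIs relative to depth. *chrd*, which encodes the antagonist chordin, had 11 UMIs in 7 nuclei of cluster 6 and 0 in all other nuclei, at least 43.7 times higher with the floor of 3 UMIs over the group, but below the minimum of 20 UMIs and so not among the 21. *fstl1b*, a follistatin-like gene, stood at 481 against 61.7 CPM (ratio 7.80, 5.41 to 11.2). *SMAD6*, an intracellular inhibitor, had 12 UMIs against 53 and *bambia*, a decoy receptor, 7 against 18. The BMP target *id1* was lower, at 109 CPM in cluster 6 and 255 CPM in all other nuclei. The ligand *bmp4* had 3 UMIs against 25.

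Of 22 measured TGF-beta and activin genes, 5 were higher, 15 lay between and 2 were lower, with a median log2 fold of 0.24. Shares over all measured features were 10.6% higher and 18.1% lower. *tgfbr3*, the co-receptor betaglycan, was among the 10 genes with the most UMIs in cluster 6 and stood at 3040 CPM there, 673 CPM in all other nuclei and 882 CPM in the basal clusters. Its ratio was 5.63 in suffix 1 and 2.61 in suffix 2. *skia*, which encodes a repressor of SMAD proteins, stood at 1379 against 289 CPM. *tgfbi*, a TGF-beta-induced matrix gene, had 33 UMIs against 34, but 20 of the 33 came from nucleus 19. *ACVR2A*, a receptor, lay between at 472 against 525 CPM, as did *SMAD3* at 336 against 438 CPM, while the receptor *acvr1bb* was higher with 3 UMIs against 17 (ratio 2.10, 0.395 to 7.27).

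FGF, hedgehog and Notch genes were not high as lists. Over all measured features 10.6% were higher and 18.1% lower, and lists this short cannot be told from those shares. Nothing particular to these pathways is read from the counts. Of 14 measured FGF pathway genes 1 was at least 2-fold higher, 10 lay between, 2 were lower and 1 had 0 UMIs. *fgfr2* stood at 1389 CPM in cluster 6 and 1610 CPM in all other nuclei, and *FGFR1* at 427 against 631 CPM. *spred1*, an inhibitor of the pathway, was the 1 higher member, with 11 UMIs against 61 (ratio 2.15, 1.02 to 4.12). Of 12 hedgehog genes 1 was higher, *gli3*, a transcription factor of the pathway, at 690 against 301 CPM. Its ratio was 2.78 in suffix 1 and 1.47 in suffix 2. *shha*, the ligand, had 1 UMI against 37, *gli2b* 5 against 0, and *gli1*, a target of the pathway, stood at 127 against 126 CPM. Of 10 Notch genes none was at least 2-fold higher, 7 lay between and 3 were lower. *jag1b*, a ligand, stood at 771 against 1239 CPM, while *heyl*, a target, had 7 UMIs against 0 below the minimum.

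Of 13 measured genes of PDGF and VEGF ligands and receptors 6 were at least 2-fold higher, 4 lay between, 2 were lower and 1 had 0 UMIs. *pdgfra*, the receptor commonly used to mark fibroblasts, had 18 UMIs in cluster 6 and 7 in all other nuclei (ratio 30.6, 12.2 to 86.8). The measured PDGF ligand genes were lower or between: *pdgfab* had 1 UMI against 71, *pdgfc* 6 against 181, and *pdgfd* stood at 399 against 715 CPM. *pdgfrb*, the receptor that also marks mural cells, had 12 UMIs against 13. *nrp2a* and *nrp2b*, neuropilin co-receptors, had 13 against 13 and 15 against 18 UMIs, ratios of 11.9 and 9.93. *flt4*, a VEGF receptor of lymphatic vessels, had 15 UMIs in 7 nuclei, and the 3 nuclei with most of it held at least 6 members of the endothelium list each.

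Of 17 insulin-like growth factor genes 4 were higher, 12 between and 1 lower. *IGFBP4*, a binding protein, had 15 UMIs in cluster 6 and 1 in all other nuclei, below the minimum. *htra1b*, a secreted protease that cuts matrix, stood at 998 against 251 CPM, and its ratio was 3.94 in suffix 1 and 4.14 in suffix 2. *pappaa* and *pappa2*, proteases that cut the binding proteins, had 10 against 14 and 13 against 29 UMIs. Of 15 retinoic acid and steroid genes 2 were higher, 11 between, 1 lower and 1 at 0 UMIs. One was *cyp26b1*, which breaks down retinoic acid, with 67 UMIs against 59, of which 34 came from nucleus 1. The other was *ar*, the androgen receptor, with 9 UMIs against 17. Shares over all measured features were 10.6% higher and 18.1% lower, and nothing particular to these lists is read from the counts.

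Of 56 measured semaphorins, plexins, ephrins, slits, netrins and their receptors 19 were at least 2-fold higher in cluster 6 than in all other nuclei, 29 lay between and 8 were lower, with a median log2 fold of 0.23. *sema5ba* stood at 1379 CPM in cluster 6 and 68.6 CPM in all other nuclei (ratio 20.1, 15.4 to 26.4), at a ratio of 22.4 in suffix 1 and 17.6 in suffix 2. *NTNG2*, a netrin bound to the membrane, stood at 835 against 38.8 CPM. Of the slit ligands, *slit2* was higher at 1143 against 447 CPM and *slit3* too, with 35 UMIs against 30, whereas *slit1a* had 2 against 92. The receptors *robo1* and *robo2* lay between. *epha3* stood at 626 against 73.1 CPM, *EPHA6* had 29 UMIs against 15 and *ephb2b* 54 against 98. Other Eph and plexin genes were lower, such as *epha2b* with 9 UMIs against 344 and *plxnb1b* with 4 against 225. *PLXNA2* had 24 against 4, while the other feature of that name, *plxna2*, had 59 against 948.

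Of 14 measured integrins 5 were at least 2-fold higher, 8 lay between and 1 was lower. *itga1*, the alpha chain of a collagen receptor, had 38 UMIs in cluster 6, 17 in all other nuclei and 4 in the basal clusters. *itga4* and *itga5*, chains of fibronectin receptors, had 28 against 11 and 25 against 12, and *itga9* 17 against 15. *itga11b*, another collagen receptor chain, had 7 against 2 below the minimum. *itgb4*, the hemidesmosome chain, stood at 490 against 1322 CPM. Of 18 cadherins and protocadherins 12 were higher and 6 lay between. *cdh11*, a cadherin of mesenchymal and bone-forming cells, had 18 UMIs against 7, *dchs1a* and *dchs1b*, the dachsous cadherins, 18 against 5 and 32 against 16, and *FAT4*, their partner, 19 against 9. *CDH4* had 22 against 7, *cdh13* 25 against 56 and *fat3a* 25 against 35. Except for *cdh13* and *fat3a*, these named cadherins also met the minimum only through cluster 6. The median log2 fold of this list was 2.47 over both suffixes but -0.50 in suffix 2, where only 2 members were measured as higher, and -0.37 with a minimum of 50 UMIs. The minimum is counted within each setting, so these medians need not cover the same genes.

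**Figure D4:**
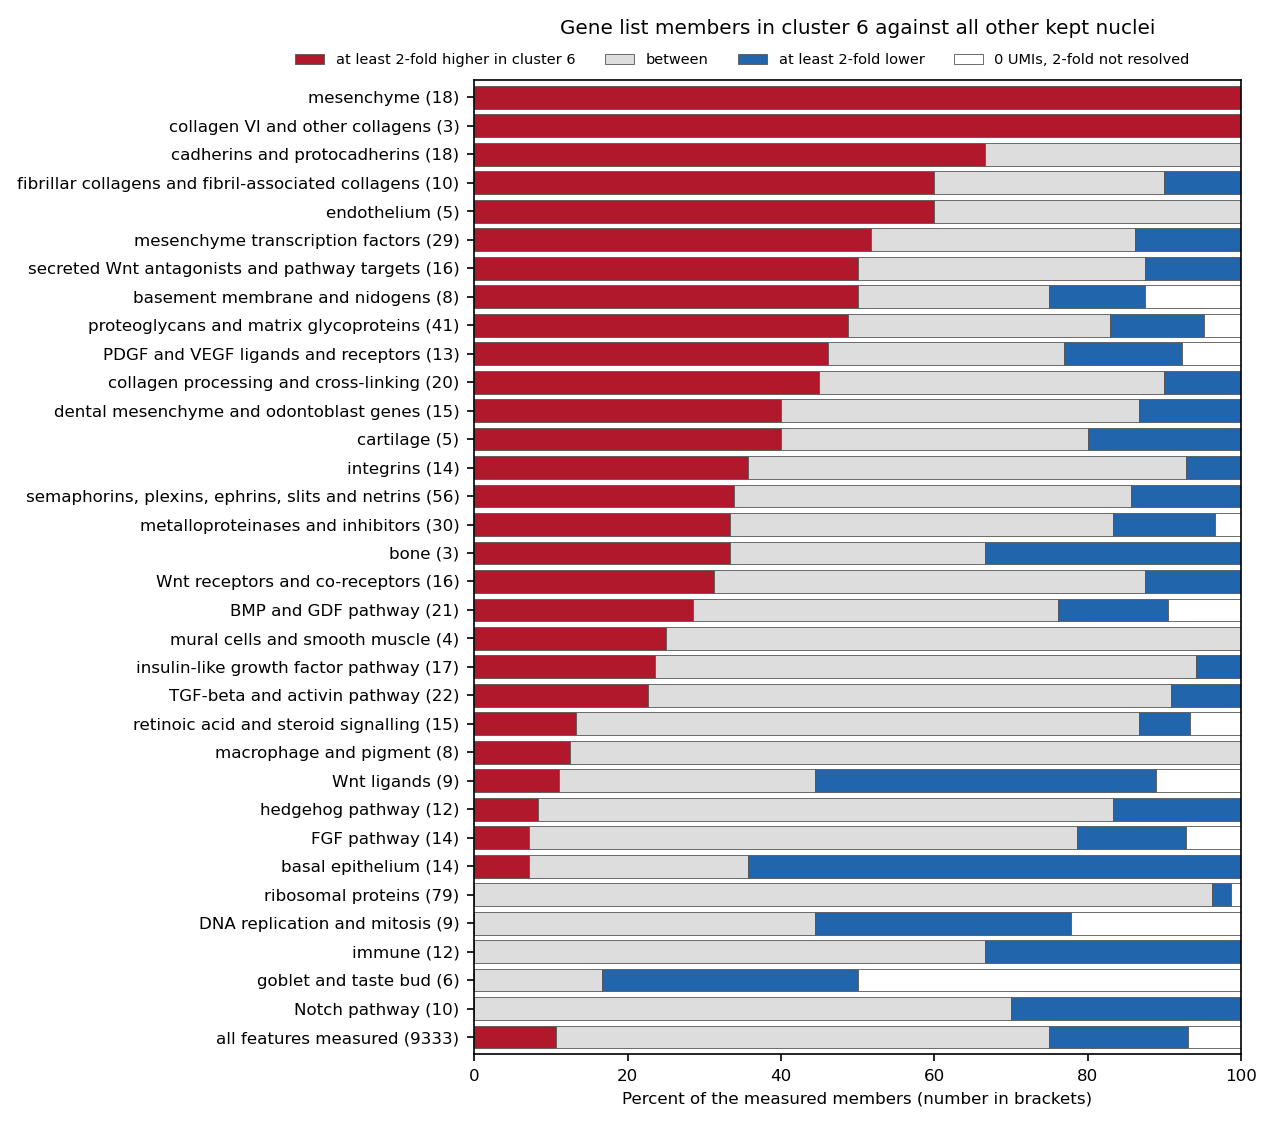
Percent of the measured members of each gene list (rows, number measured in brackets) that were at least 2-fold higher, between, at least 2-fold lower or at 0 UMIs without resolving 2-fold in cluster 6 against all other kept nuclei. The bottom bar gives all 9333 measured features, of which 10.6% were higher and 18.1% lower. All 18 mesenchyme markers were higher. None of the 10 Notch genes was, but a list this short cannot be told from the share over all features.

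Genes of dental mesenchyme and odontoblasts were read unevenly. Of 15 measured members 6 were at least 2-fold higher in cluster 6 than in all other nuclei, 7 lay between and 2 were lower, with a median log2 fold of 0.86. The 6 include the collagen I genes *col1a1a* and *col1a2*, and *gli3*, all given above with other lists and not particular to teeth. Shares over all measured features were 10.6% higher and 18.1% lower. *pax9*, a factor that teeth of mice need in their mesenchyme, had 13 UMIs in 8 nuclei of cluster 6 and 9 in all other nuclei (ratio 17.2). *barx1*, a homeobox gene of molar mesenchyme in mice, had 3 against 19 and lay between. *dlx3b* had 5 against 254, and *pitx1* stood at 290 against 493 CPM. *sparc*, which encodes osteonectin, stood at 626 CPM in cluster 6, 347 CPM in all other nuclei and 547 CPM in the basal clusters. Mineralising genes were near the floor: *alpl*, the alkaline phosphatase, had 3 UMIs against 129 and *sp7* 1 against 1. Nucleus 33 held all 5 UMIs of *entpd5a*, a phosphatase of bone-forming cells in zebrafish, and the single *sp7* UMI. Of 5 cartilage genes 2 were higher, 2 between and 1 lower. *sox9a* had 16 UMIs in 7 nuclei against 2, below the minimum, whereas *sox6*, its partner in cartilage, stood at 154 against 224 CPM.

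Of the 9 measured genes of DNA replication and mitosis none was at least 2-fold higher, 4 lay between, 3 were lower and 2 had 0 UMIs. Shares over all measured features were 10.6% higher and 18.1% lower. In the short lists of this paragraph, a count of 0 higher members cannot be told from the first share. The replication and mitosis list summed to 25 UMIs in cluster 6, or 227 CPM, against 340.5 CPM in all other nuclei. Of the 85 nuclei, 71 held none of its members. None of 12 measured immune genes was higher, 8 lay between and 4 were lower, and the list summed to 1770 CPM in cluster 6 and 2322 CPM in all other nuclei. All other nuclei include the immune clusters themselves. The basal clusters had 628 CPM, and against them 2 of 5 measured immune genes were higher and 3 lay between. Of 8 macrophage and pigment genes 1 was higher and 7 lay between, of 4 mural genes 1 was higher and 3 lay between, and the 2 Schwann and neuron genes and the 1 fat gene that were measured lay between. Of 6 goblet and taste bud genes 1 lay between, 2 were lower and 3 had 0 UMIs. Of 3 bone genes 1 was higher, 1 between and 1 lower. Of 5 endothelium genes 3 were higher and 2 between, with a median log2 fold of 2.70. In a new Leiden clustering of the nuclei the median was -0.38. Thinned to 500 UMIs 0 were higher and the median was -0.41, and with a minimum of 50 UMIs it was -0.61. Thinning and the higher minimum leave fewer members measured, so these medians do not describe the same 5 genes. Ribosomal protein genes, as a control group, lay between in 76 of 79 cases, with a median log2 fold of -0.24.

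Among the genes with the lowest upper bound, several are known from epithelium. *evpla*, which encodes envoplakin of the cornified layer, had 6 UMIs in cluster 6 and 449 in all other nuclei (ratio 0.159, 0.0581 to 0.349). *krt4* stood at 127 against 577 CPM, *EPPK1*, epiplakin, at 99.8 against 395 CPM, and *pkp3a*, a desmosomal plakophilin, at 290 against 865 CPM. *capn9* had 3 UMIs against 219, and *tead3b* and *dennd2da* each had 5, against 354 and 319; *dennd2da* was highest in Immune cluster 9, at 368 CPM. *gdpd5b*, also highest in Immune cluster 9 at 921 CPM, stood at 163 against 577 CPM and *APK84_gp11* at 753 against 1951 CPM. Within the basal epithelium list 9 of 14 measured members were at least 2-fold lower, 4 lay between and 1 was higher. *epcam* stood at 354 against 975 CPM, and *esrp2*, a splicing factor of epithelial cells, had 35 UMIs against 1099. *tp63*, whose deeper feature was read in 22.4% of nuclei of cluster 6, 17.1% of Immune cluster 2 and 59.9% of basal nuclei, lay nearer to the immune than to the basal share. The 1 member that was higher was *itga6a*, at 8 UMIs against 12, while its copy *itga6b* stood at 1316 against 2486 CPM.

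Among the 10 genes with the most UMIs in cluster 6, several hardly differed from all other nuclei. *ptchd4* stood at 12270 against 11254 CPM, *ubald1b* at 11362 against 12920 CPM, *AHNAK* at 5708 against 6108 CPM and *KCNIP2* at 6743 against 7250 CPM. *plecb* and *pcxb* were lower, at ratios of 0.613 and 0.667. *wdr73* stood at 7587 against 1453 CPM, but 549 of its 836 UMIs came from nucleus 32 and 239 from nucleus 41. Those 2 nuclei held 94.3% of it. In Immune cluster 2 *wdr73* stood at 6110 CPM.

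Against the basal clusters 786 of 6423 measured features (12.2%) were higher in cluster 6 by 2-fold or more and 1240 (19.3%) lower by as much. Of 17 mesenchyme markers all were higher, with a median log2 fold of 5.24, and of 13 basal epithelium genes 10 were lower and 3 between. The genes that stood out here and not already among the 25 leading genes were *zeb1b*, *itga1*, *itga4*, *NTNG2*, *cacna1ha*, *srpx2*, *nhsl2*, *PIEZO2*, *pdzrn3b* and *TTC28*. *cacna1ha*, a T-type calcium channel, had 63 UMIs in cluster 6, 5 in the basal clusters and 195 in all other nuclei, so that it was 77.5 times higher than in the basal clusters and 3.85 times higher than in all other nuclei. Cluster 6 was not the highest, at 572 CPM, against 722 CPM in Immune cluster 2, 644 CPM in Immune cluster 9 and 643 CPM in the Immature TB cluster. *PIEZO2*, a mechanically gated channel, had 32 UMIs, 2 in the basal clusters and 8 in all other nuclei. *srpx2*, a secreted sushi-repeat protein, had 28, 1 and 6 UMIs in the same order of groups. *nhsl2* stood at 1198 CPM in cluster 6 and 26.6 CPM in the basal clusters. For matrix genes that basal cells also read, the ratio was smaller than against all other nuclei, as for *col1a2* at 2.35 and *serpinh1b* at 1.71. Wnt ligands had 0 of 8 members higher and 6 lower, and hedgehog genes 0 of 12 higher.

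Many fish genes are present as copies from a genome duplication, named with the ending a or b. Symbols that differ in this ending alone were paired, which also pairs some genes that are not copies, such as *pdgfra* and *pdgfrb*. This comparison was chosen after values were seen. Of 350 such pairs with both members measured, 12 had both members at least 2-fold higher in cluster 6 than in all other nuclei, 84 had at least 1, and 13 had 1 higher and the other at least 2-fold lower. Over all measured features 10.6% were higher and 18.1% lower, and nothing particular to pairs is read from these counts. In 4 pairs the lower bound of 1 member was at least 2 and the upper bound of the other at most 1. *postna* had 593 UMIs in cluster 6 and 213 elsewhere, and *postnb* 12 and 501, a ratio of 0.285 (0.146 to 0.503). *sh2d3cb* had 59 against 84 UMIs and *sh2d3ca* 6 against 222. *pdlim5a* had 24 against 7 and *pdlim5b* 17 against 353. *itga6a* and *itga6b*, given above, were the fourth pair.

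The nuclei of cluster 6 varied among themselves. Of the 5 markers *prrx1b*, *glis1a*, *ptx3b*, *col6a2* and *sfrp2*, a nucleus held at least 1 in 48 of 85 cases, at least 3 in 21, all 5 in 4, and none in 37. Of 1211 other nuclei 13 held at least 1, 1 held 2 and none held 3. From the 21 features of the mesenchyme marker list the median nucleus of cluster 6 held 6 and the richest 15. The 9 nuclei with none had a median of 518 UMIs, against 1032 for the other 76, and 3 of the 9 held at least 2 endothelium members. A missing UMI in a nucleus of this depth does not show that the gene was off.

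*ptx3b*, which encodes a secreted pentraxin that binds hyaluronan matrix, marked a set of nuclei with other genes of the cluster. It was read in 25 nuclei, with 28, 18 and 12 UMIs in the 3 nuclei with most. All 25 also held *postna*, 23 held *scara5*, 20 held *glis1b*, 16 *sfrp2* and 15 *col6a2*. Under an even spread these counts would be 15, 12.9, 10, 5.59 and 5.59. Of the 19 nuclei with *sfrp2*, 16 held *ptx3b* and all 19 *postna*, against 5.59 and 11.4 under an even spread. All 7 nuclei with *sox9a* held *prrx1b*, *scara5* and *postna*, against 2.47, 3.62 and 4.2. Of the 17 nuclei with *cyp26b1*, 2 held *ptx3b*, 7 *prrx1b*, 5 *glis1a*, 8 *postna* and 4 *lyve1a*, which was read in 5 nuclei in all. An even spread would give 5, 6, 4.4, 10.2 and 1 shared nuclei. *lyve1a*, a receptor of lymphatic vessels, shared no nucleus with *prrx1b*, *glis1a*, *glis1b*, *ptx3b* or *postna*. Here an even spread would give only 1.76, 1.29, 2, 1.47 and 3 shared nuclei, so no exclusion is read from it. Nuclei differ in depth, and deeper nuclei hold more of any pair, so these counts are a description.

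**Figure D5:**
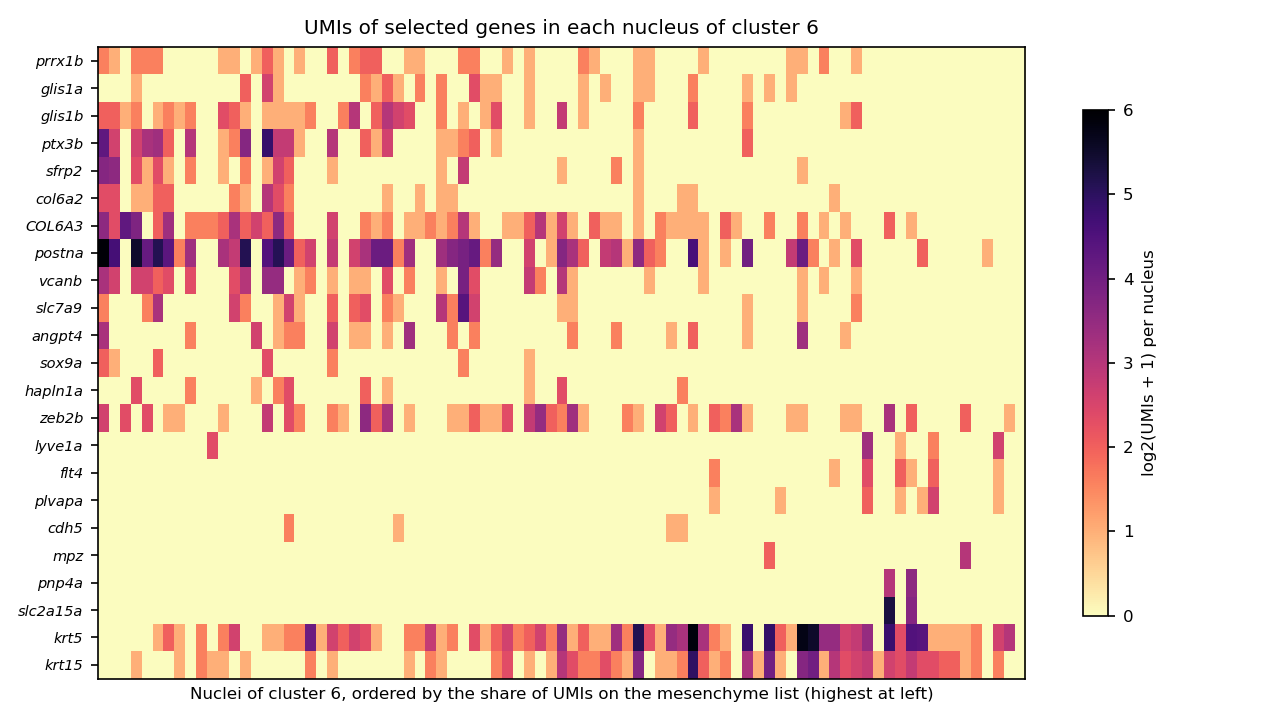
log2(UMIs + 1) as colour for selected genes (rows) in the 85 nuclei of cluster 6 (columns, ordered from left by the share of their UMIs on the mesenchyme marker list). *ptx3b* and *sfrp2* are on that list, so their place on the left follows from the order. *postna* and *vcanb*, which are not on it, are also read mainly on the left, while *flt4*, *mpz*, *pnp4a* and *slc2a15a* occur in few nuclei, all in the right part.

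Thinning to 500 UMIs gave the shares at equal depth. The gene *postna* was read in 57.1% of the thinned nuclei of cluster 6, 6.08% of all other and 10.3% of basal nuclei, against 60.0%, 10.6% and 17.9% without thinning. *zeb2b* was read in 39.0%, 0.579% and 0.419%, and *prrx1b* in 22.1% of cluster 6 and in 0 of 1037 other nuclei. *krt5* was read in 59.7% of cluster 6 and 66.7% of Immune cluster 2 at this depth. By suffix, *prrx1b* stood at 533 CPM in cluster 6 and 1.43 CPM in other nuclei of suffix 1, and at 216 and 4.89 CPM in suffix 2. *sfrp2* stood at 779 CPM in cluster 6 of suffix 1 and 81.0 CPM in suffix 2, where it rests on 3 UMIs. *glis1a* went the other way, at 219 CPM in suffix 1 and 567 CPM in suffix 2. *ptx3b* hardly differed, at 1258 and 1268 CPM. What the suffixes stand for is not known, and 28 nuclei stand behind suffix 2.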

How the data were processed

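Single-nucleus RNA was counted in oral lamina of the upper and lower jaw. The authors deposited 1 matrix of raw UMI counts, 28622 features by 1381 barcodes, not normalized; Cell Ranger 3.1.0 is named in the submitters' processing notes. The genome build is not stated in the labels or headers used here, and coordinates are left out. Per the file headers the deposited metadata add cluster, cell type, kept mark and a score named cyto, whose rule is not stated; kept equals more than 300 and fewer than 2500 genes. UMI counts were summed over the 85 nuclei of cluster 6 and over each other group and scaled to CPM, with exact conditional 95% intervals for ratios, exact Poisson intervals for CPM and Clopper-Pearson intervals for shares. A feature counts as measured from 20 UMIs in both groups together, and a member with 0 UMIs whose floor of 3 UMIs cannot resolve 2-fold as unresolved. List medians use a prior count of 0.5. Ribosomal protein features numbered 87. Members and the 36 gene lists were chosen with earlier results of these data known. Named genes were the 5 markers; the 25 highest and 10 lowest interval bounds; the 10 with most UMIs; the 10 highest against the basal clusters; up to 6 members per list with at least 5 UMIs; and 8 genes whose top nucleus held the largest share. Not every gene so named is printed. Thinning drew UMIs without replacement. Depth per group sets the precision: 110189 UMIs in cluster 6 and 1312851 in all other nuclei. Scripts were tested on simulated data. As alternatives, nuclei were weighted equally, totals were scaled by TMM (edgeR 4.0.16, R 4.3.3), minimums and depths were changed, Scrublet was run, and nuclei were clustered anew with leidenalg 0.10.2 (30 components, 15 neighbours, 2000 variable genes, resolution 1). Scripts ran under Python 3.11.15 with scanpy 1.11.5, matplotlib 3.10.9, pandas 2.3.3, scipy 1.17.1 and numpy 2.4.6.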

Additional observations from a re-analysis of the deposited data

Results flagged for a closer look

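Signal appeared in barcodes that the authors did not keep. The 41 barcodes left out for 2500 genes or more held 20 UMIs of *prrx1b* in 11 barcodes, 6 of *glis1a*, 31 of *glis1b*, 31 of *ptx3b*, 16 of *col6a2* and 16 of *sfrp2*, all above the floor of 3 UMIs. The 44 barcodes with 300 genes or fewer held 0 UMIs of each. At least 3 of the 5 markers *prrx1b*, *glis1a*, *ptx3b*, *col6a2* and *sfrp2* occurred together in 5 of the barcodes that were not kept, with 7034 to 134092 UMIs per barcode. Whether these are nuclei of the kind in cluster 6, or several nuclei under 1 barcode, was not tested.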

How the results depend on the processing

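The share of kept nuclei in cluster 6 lay between 5.40% and 6.98% under the 5 alternatives run. The count of features at least 2-fold lower than in all other nuclei was 2941 with a mean over nuclei, which counts features at 0 as lower. Thinned to 500 UMIs, 581 features were higher and 1045 lower than in all other nuclei, and 314 higher and 728 lower than in the basal clusters. In suffix 1, 445 were higher than in the basal clusters. In suffix 2, 473 were, 873 were lower than in all other nuclei, and 11 mesenchyme markers were higher. With a minimum of 10 UMIs 1676 were higher than in all other nuclei and 1483 than in the basal clusters. With a minimum of 50 UMIs 409 were higher and 1113 lower than in all other nuclei, and 264 higher and 671 lower than in the basal clusters. Against nuclei outside the Epithelial class 575 were higher. Fewer nuclei or features enter most of these settings. The percent of nuclei of cluster 6 with 3 or more mesenchyme markers was 62.3% thinned to 500 UMIs, 80.0% without thinning and 80.4% thinned to 800 UMIs.

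Of the gene ratios recomputed, 2274 stayed inside their own interval, 227 left it without being counted as turned, and 13 turned. A ratio counts as turned if its interval excluded 1 and the new value lay on the other side of 1. The 2274 include 213 from the setting without Scrublet calls, which could not differ because no nucleus was called. For *slc43a2a* the ratio turned to 0.921 with a mean over nuclei, 0.282 without the highest 5% by UMIs, 0.299 thinned to 500 UMIs and 0.280 in the own Leiden cluster. It turned to 0.639 without the 11 nuclei with at least 3 endothelium, Schwann and neuron, or macrophage and pigment members. That alternative was chosen after seeing the data. In the own Leiden cluster, 70 nuclei of which 65 were of cluster 6, *fli1a* turned to 0.701, *flt4* to 0.367 and *wdr73* to 0.269. *nfixb* turned to 0.759 thinned to 500 UMIs and 0.953 in suffix 2, where *lrp5* turned to 0.720 and *tagln* to 0.924. *ror1* turned to 0.991 in suffix 1. The median log2 fold of the endothelium list, 2.70 as reported, was -0.41 thinned to 500 UMIs, -0.38 in the own Leiden cluster and -0.61 with a minimum of 50 UMIs, and that of the cadherin list -0.50 in suffix 2 and -0.37 with a minimum of 50 UMIs. Thinning, a single suffix or a higher minimum can leave fewer members measured, so such a median need not cover the same genes. The causes were not tested. The median of all features was -0.13 (log2), -0.25 with TMM factors and -0.33 with a mean over nuclei. Scrublet called 0 of 1296 nuclei, so doublets were not removed. No paired analysis was possible because both jaws form 1 pooled sample. With 110189 UMIs, genes near 27.2 CPM in cluster 6 rest on 3 UMIs.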
